A study of Homo sapiens with 6 samples.

Results

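The genes for the translation initiation and elongation factors of the cytosol were described in QBC-939, a human bile duct cancer (cholangiocarcinoma) line by its labels. Rows of the expression table were taken when their name began with EIF and a digit, or with EEF1 or EEF2. Names of eIF2 kinases (EIF2AK), names that end in P and digits, and names with a hyphen were left out. This gave 61 genes of the 27238 rows, each named once. The ending P and digits removed 55 rows of pseudogenes and also the 3 EIF4EBP genes, which are described with the regulators. Cells were treated for 48 h with a scrambled shRNA (control, 3 libraries) or with an shRNA against BMI1 (3 libraries), and the design text describes the transfections as independent. The library protocol selected poly(A) RNA for paired-end sequencing, but its text also speaks of adipose material, so whether it holds for these samples is not settled. The question was which of these genes differ in mRNA level when BMI1, a subunit of a Polycomb repressive complex, is lowered. Levels are in FPKM, the fragments counted per length of transcript and per mapped fragments of the library, so that genes of different length can be compared. Such comparisons are less sure for rows that share reads with copies, and changes between groups went with GC content, as described below.

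BMI1 measured 6.65, 5.34 and 6.09 FPKM in control and 1.49, 1.19 and 2.65 FPKM after Bmi1 shRNA. It was lower in all 3 treated libraries (limma, adjusted p = 0.00162). The FPKM of a library summed to between 332910 and 341268 in control and between 352800 and 360371 with Bmi1 shRNA, with no overlap; the table carries no read depth, and counting error cannot be set beside its values. Of the bile duct markers, KRT19, EPCAM and SOX9 stood above 18 FPKM in every library and KRT7 between 2.06 and 3.45 FPKM. KRT7, KRT19, EPCAM and SOX9 summed to 469 to 484 FPKM in control and to 377 to 431 FPKM with Bmi1 shRNA, with no overlap. A row was found for 3 of 6 fibroblast and 2 of 3 endothelial markers, all under 1 FPKM in every library. Of the leukocyte list, LYZ, the gene for lysozyme, stood at 1416 FPKM or more in every library and CD68 between 6.78 and 12 FPKM. The hepatocyte list summed to 5.84 to 6.98 FPKM in control and to 17.6 to 19.7 FPKM with Bmi1 shRNA, nearly all of it TTR. The part of the bile duct and hepatocyte markers in the results was not tested.

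Translation starts when eIF2, carrying GTP and the initiator tRNA, joins the small ribosomal subunit together with eIF1, eIF1A, eIF3 and eIF5. The eIF4F complex, made of the cap-binding protein eIF4E, the scaffold eIF4G and the helicase eIF4A, brings this assembly to the capped end of an mRNA, which is then scanned for a start codon. eIF5B joins the large subunit, eEF1A delivers aminoacyl-tRNA to the ribosome, and eEF2 moves the ribosome along codon by codon. Stress kinases stop initiation by phosphorylating eIF2 so that it blocks its exchange factor eIF2B, and mTORC1 promotes it by releasing eIF4E from the 4E-BP inhibitors.

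Many mRNAs of the translation machinery begin with a C followed by a run of pyrimidines, the terminal oligopyrimidine (TOP) start by which mTORC1 and LARP1 regulate their translation. RefSeq start sites (GRCh38.p14) were matched by symbol for 48 of the 61 genes. A C at the start itself followed by at least 4 bases that are C or T, read on the strand of the gene, stood at a start of 13 of them (27.1%), against 5.14% of the 27305 genes with a start site in the reference and 68.3% of 63 genes for cytosolic ribosomal proteins. The 13 were EEF1A1, EEF1B2, EEF2, EIF2A, EIF2D, EIF2S3, EIF2S3B, EIF3D, EIF3F, EIF3K, EIF3M, EIF4A2 and EIF4B. No start site was matched for EEF1A2, EEF1AKMT1, EEF1AKMT3, EEF1AKNMT, EEF1D, EEF2KMT, EIF2S2, EIF3A, EIF3CL, EIF3E, EIF3G, EIF3H and EIF3L. Whether those genes have a TOP start was not determined. Printed here are 15 bases before the start and 15 from it, with the oligopyrimidine run in capitals. These 8 were chosen because they share the start type and yet include genes that rose, that fell and that did not pass. A match describes the annotated start and not the start used in these cells.
EEF1A1 (chr6:73521018-73521047, reverse strand): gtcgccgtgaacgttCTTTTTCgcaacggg
EEF1B2 (chr2:206159880-206159909, forward strand): ccggtctcttcgggtCCTTTTTCCTCTCTT
EEF2 (chr19:3985449-3985478, reverse strand): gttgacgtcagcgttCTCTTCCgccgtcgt
EIF3K (chr19:38619173-38619202, forward strand): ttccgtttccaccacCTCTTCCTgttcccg
EIF3M (chr11:32583816-32583845, forward strand): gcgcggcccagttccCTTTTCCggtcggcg
EIF3F (chr11:7987322-7987351, forward strand): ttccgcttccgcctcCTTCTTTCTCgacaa
EIF4B (chr12:53006441-53006470, forward strand): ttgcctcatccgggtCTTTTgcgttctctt
EIF4A2 (chr3:186783562-186783591, forward strand): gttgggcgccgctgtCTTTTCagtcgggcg

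Translation factor genes moved in both directions. Of the 61 genes, 59 had a mean of at least 1 FPKM and were tested; EIF4E3 and EEF1AKMT3 lay below it. With Bmi1 shRNA 36 of the 59 passed the test (61%; limma on log2(FPKM + 1), p adjusted by Benjamini and Hochberg, threshold 0.05), against 57.1% of all 11016 rows tested. Higher were 22 (37.3%, against 28.6% of all rows), and lower were 14 (23.7%, against 28.5%). The share that passed was thus close to that of the table as a whole. Counts by complex below are small and are to be read beside these shares. The groups did not overlap for 44 of the 59, against 65.4% of all rows; 25 of these stood higher (32.3% of all rows) and 19 lower (33.1%). The median log2 fold change was 0.11 against -0.017 over all rows, and the median absolute value was 0.30 against 0.31. EIF3E alone passed at a change of at least 1 on this scale, where the added 1 makes the change of weakly expressed genes look smaller. Together the 61 genes held 1.29% to 1.42% of the summed FPKM in control libraries and 1.37% to 1.4% with Bmi1 shRNA, ranges that overlap. In bulk RNA fewer cells of a type and less RNA per cell cannot be told apart.

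The balance of rises and falls depended on scaling and on the GC content of transcripts. Scaled to one total per library, 18 genes were higher and 19 lower, against 2649 and 3708 of all 11016 rows. EIF4G2, EIF5A2, EIF6 and EEF1AKMT4 no longer passed, and EIF2D, EIF2S3, EIF3D, EIF3G and EIF4A3 passed as lower. Of the genes that passed, 48.6% were then higher, against 41.7% of all rows that passed. In the deposited values these shares were 61.1% and 50.1%. In this table genes of low GC content were higher with Bmi1 shRNA as a whole, so the trend of each library with GC content and transcript length was also removed by regression over all rows. After that step 12 genes were higher and 15 lower, against 19.1% higher and 20.7% lower over all rows (39.8% in all). With GC content and length as medians over each gene's transcripts, a version added after seeing the data, 15 were higher and 15 lower. Over all 10242 rows of that version 2241 were higher and 2556 lower. Changes that truly follow GC content or length are taken out as well. Values after it are given below as log2 fold changes with the trend removed, taken from the longest coding transcript, and those with medians over transcripts where the call differs.

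**Figure D1:**
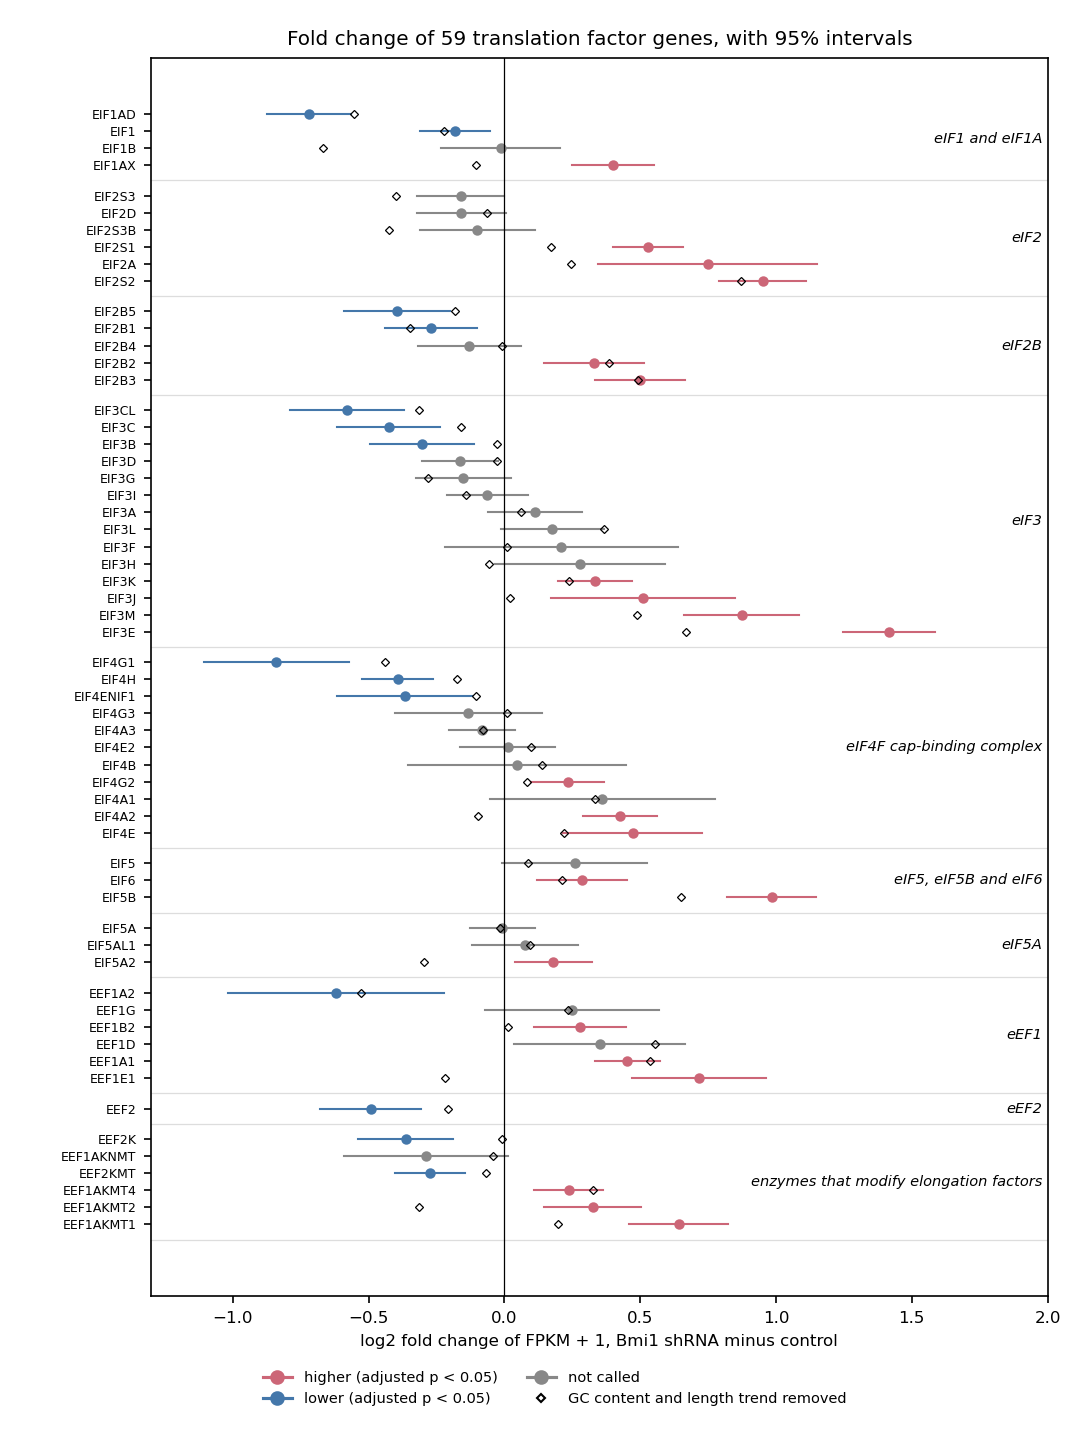
Log2 fold change of FPKM + 1 (x axis, Bmi1 shRNA minus control) for the 59 genes tested, grouped by complex (y axis); filled points with bars are limma estimates with 95% intervals, coloured by the adjusted p, and open diamonds are the estimates after removal of the trend with GC content and length. EIF3E stands highest at 1.42 and EIF4G1 lowest at -0.84.

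Of 4 genes of the eIF1 and eIF1A families, 1 rose, 2 fell and 1 did not pass. EIF1AX, which encodes eIF1A, measured 31.8, 28.1 and 29 FPKM in control and 38.2, 40.3 and 39.4 FPKM after Bmi1 shRNA, a rise of 1.33-fold with no overlap (log2 fold change 0.40, SE 0.063; limma, adjusted p = 0.0025). At 35.1% GC its sign turned with the trend removed (-0.10, adjusted p = 0.165). A pseudogene row, EIF1AXP1, measured 28, 21.3 and 25.6 FPKM in control and 33.7, 35.8 and 42.5 FPKM after Bmi1 shRNA. Reads can be shared between the rows, so the level of EIF1AX is uncertain. Summed, they gave 59.8, 49.4 and 54.6 FPKM in control and 71.9, 76.2 and 81.9 FPKM after Bmi1 shRNA. EIF1, which guards start codon selection, fell from 139 ± 6.53 to 122 ± 2.91 FPKM (SD, n = 3 each), all treated libraries lying below all controls (log2 fold change -0.18; limma, adjusted p = 0.0255). It no longer passed without control replicate 1, without control replicate 3, without Bmi1 shRNA replicate 1 or without Bmi1 shRNA replicate 3 (adjusted p = 0.0721, 0.0919, 0.0552 and 0.0614), nor with libraries scaled to one upper quartile (0.0621). Its paralog EIF1B, at 13.9 ± 0.95 and 13.8 ± 1.51 FPKM (SD, n = 3 each), did not pass (limma, adjusted p = 0.909); with the trend removed it was lower (-0.67; limma, adjusted p = 0.00204). Of the summed FPKM of EIF1 and EIF1B, the latter held 9.38, 9.81 and 8.18% in control and 11.2, 9.72 and 9.54% after Bmi1 shRNA, ranges that overlap. EIF1AD, whose protein has an eIF1A-like domain, fell 1.76-fold, from 10.6, 9.49 and 10.8 FPKM in the control libraries to 5.96, 5.8 and 5.77 FPKM (log2 fold change -0.72, SE 0.064; limma, adjusted p = 0.000443; trend removed -0.55).

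Of 6 genes named for eIF2, 3 rose and none fell, and the 3 subunits of the complex itself did not move alike. EIF2S1, the alpha subunit that stress kinases phosphorylate, measured 5.87, 5.61 and 5.56 FPKM in control and 8.62, 8.87 and 8.44 FPKM after Bmi1 shRNA. EIF2S2, the beta subunit, measured 37.6, 34.4 and 33.3 FPKM in control and 66.3, 72.5 and 67.3 FPKM after Bmi1 shRNA, the largest rise in this complex at 1.96-fold. Both stood higher in every treated library than in any control. The log2 fold changes were 0.53 (SE 0.054) and 0.95 (SE 0.067), with adjusted p = 0.000589 and 0.00028 (limma). EIF2S3, the gamma subunit that binds GTP and the initiator tRNA, measured 43.2, 45.1 and 39.6 FPKM in control and 36.3, 39.4 and 38.3 FPKM after Bmi1 shRNA and did not pass, although its groups did not overlap (limma, adjusted p = 0.0801; 0.0481 without control replicate 3). With the trend removed EIF2S2 kept its rise (0.87; 45.2% GC), that of EIF2S1 shrank (0.17; 39.2% GC) and did not pass with medians over transcripts (0.057, adjusted p = 0.353) or with the replicate block added (adjusted p = 0.0819), and EIF2S3 was lower (-0.40; limma, adjusted p = 0.0035). EIF2S2 also has a pseudogene row, EIF2S2P4, which measured 5.86, 6.44 and 6.0 FPKM in control and 11.7, 12.6 and 13.2 FPKM after Bmi1 shRNA. Reads can be shared between such copies; the sum of both rows went from 43.4, 40.9 and 39.3 FPKM to 78, 85.1 and 80.5 FPKM.

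EIF2A, a separate initiator tRNA-binding protein and not the alpha subunit, measured 4.65, 3.34 and 3.61 FPKM in control and 6.45, 9.24 and 6.03 FPKM after Bmi1 shRNA. It rose 1.87-fold with no overlap (log2 fold change 0.75, SE 0.17; limma, adjusted p = 0.00938); with the trend removed the value was 0.25 and did not pass (adjusted p = 0.231). EIF2D, which acts in reinitiation and ribosome recycling, and EIF2S3B, a retrogene copy of EIF2S3, did not pass (limma, adjusted p = 0.087 and 0.363). EIF2S3B stood at 1.86 ± 0.20 and 1.67 ± 0.216 FPKM (SD, n = 3 each) and could share reads with EIF2S3.

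The 5 subunits of eIF2B, the exchange factor that recharges eIF2 with GTP, moved in both directions, 2 up and 2 down. EIF2B3, the gamma subunit, was at the lowest level of the 5 in control and rose 1.54-fold, measuring 3.34, 2.99 and 3.26 FPKM in control and 5.25, 4.99 and 4.58 FPKM after Bmi1 shRNA (log2 fold change 0.50, SE 0.070; limma, adjusted p = 0.0016). EIF2B2, the beta subunit, rose from 5.26, 5.3 and 5.68 to 7.36, 7.53 and 6.35 FPKM (log2 fold change 0.33, SE 0.076; limma, adjusted p = 0.0105). For both, all treated libraries stood above all controls. EIF2B5, the catalytic epsilon subunit, fell from 11.8, 9.92 and 11.6 to 8.72, 7.94 and 7.91 FPKM (log2 fold change -0.39, SE 0.081; limma, adjusted p = 0.0068). EIF2B1, the alpha subunit at the highest level of the 5, fell from 15, 16.3 and 16.8 to 13.3, 13.8 and 12.2 FPKM (log2 fold change -0.27, SE 0.071; limma, adjusted p = 0.0168). Here all treated libraries stood below all controls. EIF2B4, the delta subunit, measured 5.59 ± 0.447 and 5.02 ± 0.399 FPKM (SD, n = 3 each) and did not pass (limma, adjusted p = 0.206). The highest level of the 5 genes divided by the lowest was 4.49, 5.44 and 5.14 in the control libraries and 2.85, 2.77 and 2.67 with Bmi1 shRNA, with no overlap. For the 3 subunits of eIF2 it was 7.37, 8.02 and 7.12 in control and 7.7, 8.18 and 7.97 with Bmi1 shRNA, groups that overlap. These ratios come from the deposited values and were not computed with the trend removed. With the trend removed EIF2B3 (0.49), EIF2B2 (0.39) and EIF2B1 (-0.35) still passed and EIF2B5 did not (-0.18; limma, adjusted p = 0.126). EIF2B1 did not pass without control replicate 2 or 3 (adjusted p = 0.0539 and 0.0599).

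eIF3, the 13-subunit scaffold that holds the small ribosomal subunit open for mRNA, contained the strongest single change, and of its 14 genes 4 rose, 3 fell and 7 did not pass. EIF3E, the e subunit, measured 6.77, 6.38 and 6.55 FPKM in control and 19.8, 20.3 and 17.5 FPKM after Bmi1 shRNA. This was a rise of 2.93-fold (log2 fold change 1.42, SE 0.071; limma, adjusted p = 0.000193), and every treated library stood far above the controls. EIF3M, the m subunit, measured 4.92, 4.87 and 4.98 FPKM in control and 9.43, 11.3 and 8.95 FPKM after Bmi1 shRNA, a rise of 2.01-fold (log2 fold change 0.87, SE 0.088; limma, adjusted p = 0.000587). EIF3E and EIF3M had the lowest levels of all eIF3 genes in each control library. Both have transcripts of low GC content (38.2% and 38%), and with the trend removed their log2 fold changes were 0.67 and 0.49 and still passed (limma, adjusted p = 0.000552 and 0.00836).

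EIF3K, a small peripheral subunit, rose from 91.6, 85.1 and 89.4 to 112, 118 and 107 FPKM (log2 fold change 0.33, SE 0.057; limma, adjusted p = 0.0034; trend removed 0.24). EIF3J, a loosely bound subunit, rose from 13.5, 13.2 and 10.2 to 15.3, 17.9 and 20.7 FPKM (log2 fold change 0.51, SE 0.14; limma, adjusted p = 0.0205), but with the trend removed its value was 0.021 and its call also ended without control replicate 3 or Bmi1 shRNA replicate 2 or 3 (adjusted p = 0.0514, 0.0554 and 0.0549). No treated library overlapped the controls for either gene. The falls lay in EIF3B, a core subunit, and in EIF3C, which bridges to eIF1 and eIF5. EIF3B measured 37.6, 38.9 and 38.2 FPKM in control and 27.4, 31.8 and 33.5 FPKM after Bmi1 shRNA (log2 fold change -0.30, SE 0.080; limma, adjusted p = 0.0176). At 56.7% GC its value was -0.028 with the trend removed, and its call ended without control replicate 2 or 3 (adjusted p = 0.0545 and 0.0508). EIF3C measured 34.7, 39.7 and 37.4 FPKM in control and 25.1, 28.7 and 28.8 FPKM after Bmi1 shRNA, and its near-identical copy EIF3CL measured 87.5, 92.7 and 88.4 FPKM in control and 53.8, 58.1 and 67.6 FPKM after Bmi1 shRNA. Reads of these copies cannot be assigned with certainty, so neither level is sure; their sum was 122, 132 and 126 FPKM in control and 78.9, 86.8 and 96.4 FPKM with Bmi1 shRNA, with no overlap. Each passed by itself, with log2 fold changes of -0.43 and -0.58 (limma, adjusted p = 0.00462 and 0.00217), and with the trend removed EIF3C did not (adjusted p = 0.118; medians over transcripts -0.36, adjusted p = 0.0105) while EIF3CL did (-0.32; adjusted p = 0.0172).

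The other 7 genes of eIF3 did not pass. EIF3I stood at 128 ± 3.1 and 123 ± 8.23 FPKM (SD, n = 3 each), the highest single row of eIF3 in control. EIF3A stood at 29.4 ± 1.08 and 32 ± 2.61 FPKM (SD, n = 3 each). EIF3L stood at 29.9 ± 1.82 and 34 ± 2.77 FPKM (SD, n = 3 each). The groups of EIF3I, EIF3A and EIF3L overlapped. EIF3D, which can bind caps itself, had groups that did not overlap (38.3, 38.1 and 38.5 FPKM in control and 32.2, 34 and 36.3 FPKM after Bmi1 shRNA) and an adjusted p of 0.0511 (limma), or 0.0215 without Bmi1 shRNA replicate 3, and it passed as lower under each of the 3 other scalings tried (largest adjusted p 0.0278). EIF3D did not pass with the replicate block (limma, adjusted p = 0.0918) or with the trend removed (-0.028, limma, adjusted p = 0.709). EIF3G had groups that did not overlap either (limma, adjusted p = 0.118), and with the trend removed it was lower (-0.28), but not with medians over transcripts (-0.027, adjusted p = 0.751). For EIF3H (21.4, 18.9 and 19.9 FPKM in control and 19.9, 27.2 and 27.4 FPKM after Bmi1 shRNA) and EIF3F (17.1, 17.4 and 17.6 FPKM in control and 16.5, 18.2 and 27.6 FPKM after Bmi1 shRNA) 1 treated library stood apart from the other two. EIF3H passed without Bmi1 shRNA replicate 1 (limma, adjusted p = 0.00729), but with the trend removed its sign turned and it did not pass (-0.056, adjusted p = 0.749). EIF3L passed without Bmi1 shRNA replicate 1 as well (limma, adjusted p = 0.0382). EIF3L also passed with the trend removed (0.37, adjusted p = 0.00982), but not with medians over transcripts (0.11, adjusted p = 0.309). A pseudogene row, EIF3FP3, stood near the level of EIF3F, at 17.6, 18.1 and 20.4 FPKM in control and 19.1, 22.4 and 20 FPKM after Bmi1 shRNA. Reads can be shared between these rows, so the level of EIF3F is uncertain.

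Summed over its 14 genes, eIF3 mRNA stayed within the spread of the libraries, at 569, 577 and 565 FPKM in control and 547, 583 and 588 FPKM with Bmi1 shRNA. In the deposited values, with EIF3CL left out, the levels of the 13 subunits differed less among themselves after treatment. The SD of log2 FPKM over the subunits was 1.3, 1.32 and 1.33 in control and 1.05, 0.982 and 0.965 with Bmi1 shRNA. The highest level divided by the lowest was 25.1 to 26.9 in control and 11 to 13.8 with Bmi1 shRNA. Without EIF3E and EIF3M, a choice made after their values were seen, the SD was 0.957, 0.962 and 1.01 in control and 1.01, 0.93 and 0.799 with Bmi1 shRNA, and the groups overlapped. These are descriptions of the deposited values, with no test, and were not computed with the trend removed. EIF3E, EIF3M and EIF3J, which rose, have transcripts of 38.2%, 38% and 38.8% GC. EIF3B and EIF3C, which fell, have 56.7% and 54.6%, but EIF3K, which rose, has 52.8%. The part of GC content in the smaller spread was not tested.

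**Figure D2:**
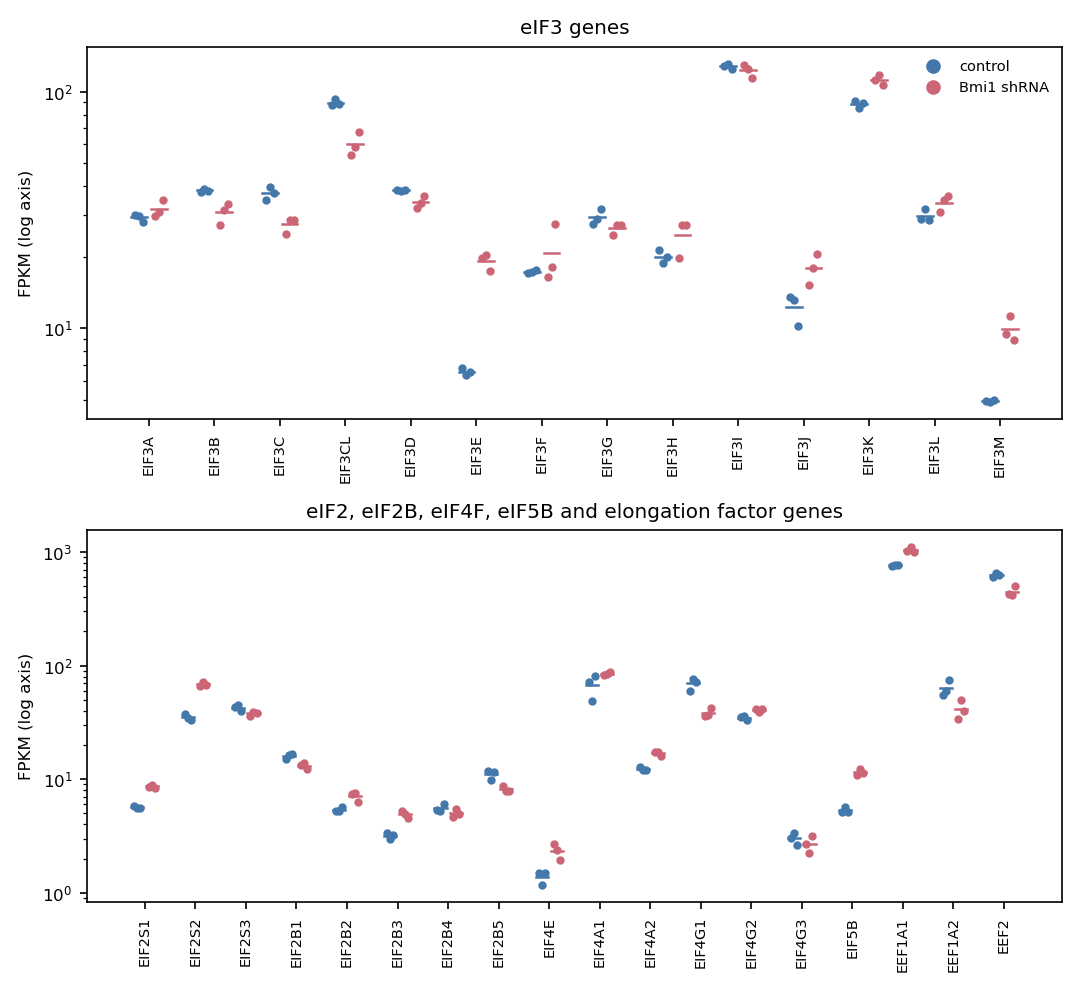
FPKM of each library on a log axis (y axis) for the eIF3 genes (upper panel) and for genes of eIF2, eIF2B, eIF4F, eIF5B and the elongation factors (lower panel); points are libraries and bars group means, control in blue and Bmi1 shRNA in red. EIF3E went from 6.57 to 19.2 FPKM while EIF3I, at the top of the panel, was at 128 and 123 FPKM.

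In eIF4F the main scaffold gene fell, and the cap-binding protein's gene rose but did not pass with the trend removed. Of the 11 tested genes of this complex and its helpers, 3 rose, 3 fell and 5 did not pass. EIF4G1, the main scaffold that joins eIF4E, eIF4A, eIF3 and the poly(A)-binding protein, measured 60.3, 76.9 and 71.8 FPKM in control and 35.8, 36.6 and 42.8 FPKM after Bmi1 shRNA. It fell 1.81-fold, the largest fall among all 59 genes, with no overlap (log2 fold change -0.84, SE 0.11; limma, adjusted p = 0.00134; 57.4% GC, trend removed -0.44, adjusted p = 0.00617). EIF4G2, a relative that lacks the eIF4E-binding site and serves cap-independent initiation, rose from 35, 35.9 and 33 to 41.9, 39.4 and 41.4 FPKM (log2 fold change 0.23, SE 0.056; limma, adjusted p = 0.0123). This rise did not pass with each library scaled to one total (limma, adjusted p = 0.0739) or with the trend removed (0.085, adjusted p = 0.188), and its sign turned with the medians over transcripts (-0.10). EIF4G3, at 3.03 ± 0.359 and 2.69 ± 0.449 FPKM (SD, n = 3 each), did not pass (limma, adjusted p = 0.346). As a share of the 3 scaffold genes' summed FPKM, EIF4G1 held 61.3, 66.2 and 66.8% in control and 44.6, 46.8 and 49% after Bmi1 shRNA. EIF4G2 held 35.6, 30.9 and 30.7% in control and 52.1, 50.3 and 47.4% after Bmi1 shRNA, so that it exceeded EIF4G1 in 2 of 3 treated libraries and in no control.

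EIF4E, which binds the cap, measured 1.5, 1.16 and 1.51 FPKM in control and 2.67, 2.37 and 1.93 FPKM after Bmi1 shRNA, a rise of 1.67-fold at a low level (log2 fold change 0.47, SE 0.11; limma, adjusted p = 0.00949; 39% GC, trend removed 0.22, adjusted p = 0.212). With medians over transcripts the value of EIF4E was 0.018 (limma, adjusted p = 0.901). A pseudogene row, EIF4EP2, stood higher than the gene itself (7.04, 6.3 and 7.96 FPKM in control and 9.46, 9.2 and 9.21 FPKM after Bmi1 shRNA), so the level of EIF4E is uncertain. Summed, both rows gave 8.54, 7.46 and 9.47 FPKM in control and 12.1, 11.6 and 11.1 FPKM after Bmi1 shRNA. EIF4EP2 was lower with the trend removed (-0.42, limma, adjusted p = 0.00938) and did not pass with medians over transcripts (-0.093, adjusted p = 0.403). EIF4E2, a repressive cap-binding relative, was at 12.3 ± 0.341 and 12.4 ± 1.05 FPKM (SD, n = 3 each) and did not pass (limma, adjusted p = 0.896). EIF4E3 stood at 0.443, 0.46 and 0.448 FPKM in control and at 0.344, 0.284 and 0.314 FPKM with Bmi1 shRNA, under the level for testing. Of the summed FPKM of the 3 cap-binding genes, EIF4E held 10.5, 8.63 and 10.4% in control and 16.8, 15 and 14.4% after Bmi1 shRNA, with no overlap. EIF4EP2 is left out of this share, which is therefore as uncertain as the level of EIF4E. EIF4ENIF1, the eIF4E transporter, fell from 2.42, 2.48 and 1.92 to 1.45, 1.35 and 1.82 FPKM (log2 fold change -0.37; limma, adjusted p = 0.0224), a call lost without control replicate 1, without control replicate 2, without Bmi1 shRNA replicate 1 or without Bmi1 shRNA replicate 2 (adjusted p = 0.067, 0.0724, 0.0675 and 0.0681) and with the trend removed (adjusted p = 0.398), though not with medians over transcripts (-0.32, adjusted p = 0.038).

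Of the helicases, EIF4A2 rose from 12.8, 12 and 12.1 to 17.2, 17.3 and 16.1 FPKM (log2 fold change 0.43, SE 0.057; limma, adjusted p = 0.00137), and at 40.6% GC its sign turned with the trend removed (-0.10, adjusted p = 0.107). EIF4A1, the main helicase, measured 71.6, 49.1 and 80.5 FPKM in control and 82.2, 84.7 and 87.1 FPKM after Bmi1 shRNA and did not pass, with control libraries that lay far apart (limma, adjusted p = 0.116; 0.0447 without control replicate 3). A row for the readthrough of SENP3 into EIF4A1 measured 35.3, 70.1 and 19.2 FPKM in control and 19.7, 12.3 and 0 FPKM after Bmi1 shRNA. It was high where EIF4A1 was low. Summed, the rows gave 107, 119 and 99.7 FPKM in control and 102, 96.9 and 87.1 FPKM with Bmi1 shRNA, groups that overlap, so the level of EIF4A1 is uncertain. Of the summed FPKM of EIF4A1 and EIF4A2, the latter held 15.2, 19.7 and 13.1% in control and 17.3, 16.9 and 15.6% after Bmi1 shRNA, likewise with overlap. EIF4A3, the helicase of the exon junction complex, had groups that did not overlap but a small difference (15.7 ± 0.332 and 14.7 ± 0.317 FPKM (SD, n = 3 each); limma, adjusted p = 0.207). EIF4H, an activator of eIF4A, fell from 171, 171 and 183 to 137, 127 and 135 FPKM (log2 fold change -0.39, SE 0.054; limma, adjusted p = 0.00159; trend removed -0.17, adjusted p = 0.0215). EIF4B, the other activator, measured 60.7, 44 and 39.5 FPKM in control and 44.6, 55.7 and 46.8 FPKM after Bmi1 shRNA with full overlap (limma, adjusted p = 0.826).

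**Figure D3:**
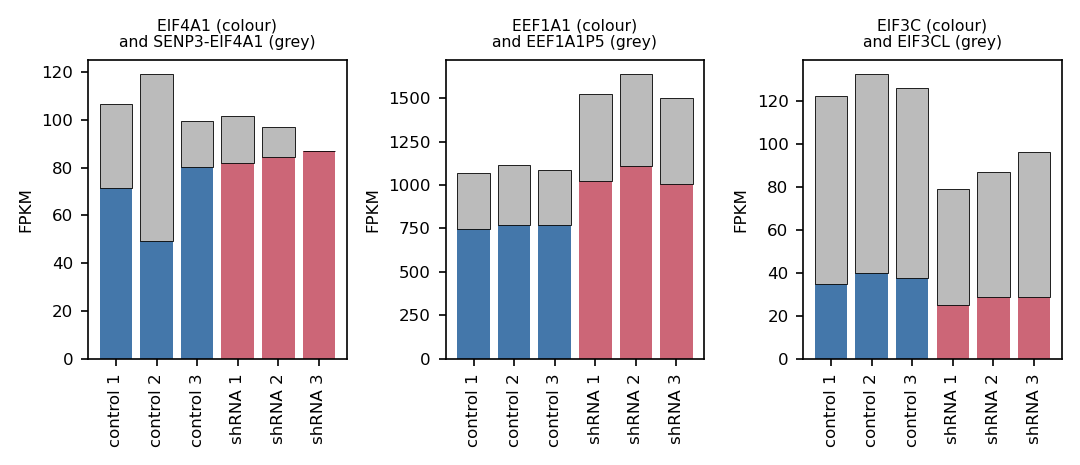
FPKM by library (y axis) of 3 genes in colour (control blue, Bmi1 shRNA red), each with a row that can share its reads stacked in grey. For EIF4A1 the sums overlap between groups, for EEF1A1 with the pseudogene EEF1A1P5 all treated libraries lie above the controls, and for EIF3C with EIF3CL all lie below.

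EIF5B, the GTPase that joins the large subunit, rose strongly. It measured 5.17, 5.67 and 5.17 FPKM in control and 10.9, 12.3 and 11.3 FPKM after Bmi1 shRNA, a rise of 2.16-fold with no overlap (log2 fold change 0.98, SE 0.068; limma, adjusted p = 0.000277; 38.6% GC, trend removed 0.65, adjusted p = 0.00117). EIF5, which makes eIF2 hydrolyse its GTP at the start codon, measured 2.71, 3.31 and 3.45 FPKM in control and 4.39, 4.21 and 3.34 FPKM after Bmi1 shRNA and did not pass (limma, adjusted p = 0.0884, or 0.0277 without Bmi1 shRNA replicate 3). With the trend removed EIF5 did not pass either (0.087, limma, adjusted p = 0.609). EIF6, which keeps the large subunit from joining too early, rose from 223, 212 and 217 to 267, 244 and 288 FPKM (log2 fold change 0.29, SE 0.069; limma, adjusted p = 0.0123). That call ended with each library scaled to one total (adjusted p = 0.0537), with quantile normalization (0.422) and with the trend removed (0.21, adjusted p = 0.0512), though not with medians over transcripts (0.46, adjusted p = 0.00216). EIF5A, the hypusine-bearing factor that helps ribosomes past stalls, was among the most abundant genes and did not pass, at 311 ± 13.7 and 309.6 ± 6.37 FPKM (SD, n = 3 each) (limma, adjusted p = 0.909); the 95% interval of its log2 fold change ran from -0.13 to 0.11, and it was higher with medians over transcripts (0.17, adjusted p = 0.0332). Its paralog EIF5A2 measured 2.06, 2.09 and 2.03 FPKM in control and 2.48, 2.59 and 2.33 FPKM after Bmi1 shRNA (log2 fold change 0.18, SE 0.059; limma, adjusted p = 0.0372). Leaving out a single library ended the call of EIF5A2 in 5 of 6 cases, Bmi1 shRNA replicate 3 being the exception (adjusted p up to 0.102). It ended under each of the 3 other scalings (adjusted p up to 0.13), and at 34.3% GC its sign turned with the trend removed (-0.30, adjusted p = 0.00755). EIF5AL1, a retrogene copy, did not pass (limma, adjusted p = 0.462).

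The 3 highest levels of all 61 genes were those of EEF1A1, EEF1G and EEF2, and EEF1A1 and EEF2 moved in opposite directions. EEF1A1, which delivers aminoacyl-tRNA, measured 747, 772 and 769.6 FPKM in control and 1023, 1107 and 1007 FPKM after Bmi1 shRNA, a rise of 1.37-fold (log2 fold change 0.45, SE 0.050; limma, adjusted p = 0.000758). EEF2, the translocase, measured 602, 654 and 633 FPKM in control and 423, 423 and 499 FPKM after Bmi1 shRNA, a fall of 1.4-fold (log2 fold change -0.49, SE 0.077; limma, adjusted p = 0.00245). Neither pair of groups overlapped, and both changes passed with the trend removed (0.54 for EEF1A1 and -0.21 for EEF2; limma, adjusted p = 0.00137 and 0.0174). EEF1A1 can share reads with its pseudogene rows, of which EEF1A1P5 alone measured 325, 342 and 319 FPKM in control and 503, 533 and 496 FPKM after Bmi1 shRNA. Summed with it, EEF1A1 gave 1072, 1114 and 1089 FPKM in control and 1526, 1640 and 1503 FPKM with Bmi1 shRNA.

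EEF1A2, the eEF1A paralog of muscle and neurons that some tumours express, measured 55.3, 60.2 and 75.1 FPKM in control and 33.7, 49.5 and 40.3 FPKM after Bmi1 shRNA and fell 1.55-fold (log2 fold change -0.62, SE 0.17; limma, adjusted p = 0.0181; trend removed -0.53, adjusted p = 0.0377). Its call ended without control replicate 3 (limma, adjusted p = 0.0509), the library in which it was highest. Of the summed FPKM of EEF1A1 and EEF1A2, the latter held 6.89, 7.23 and 8.89% in control and 3.19, 4.27 and 3.85% after Bmi1 shRNA, with no overlap. The exchange factor that reloads eEF1A has the subunits encoded by EEF1B2, EEF1D and EEF1G. EEF1B2 can share reads with its pseudogene row EEF1B2P3, which measured 53.5, 47.3 and 55.5 FPKM in control and 62.2, 70.4 and 63.1 FPKM after Bmi1 shRNA. EEF1B2 rose from 308, 279.6 and 283 to 369.9, 364 and 323 FPKM (log2 fold change 0.28, SE 0.070; limma, adjusted p = 0.015), but its call ended without control replicate 3 (adjusted p = 0.0529), with upper quartile scaling (0.0652), with quantile normalization (0.0507) and with the trend removed (0.012, adjusted p = 0.868), though not with medians over transcripts (0.25, adjusted p = 0.0262). EEF1D (24.3, 18.7 and 23.3 FPKM in control and 32.7, 25 and 27.8 FPKM after Bmi1 shRNA) and EEF1G (707, 967 and 1007 FPKM in control and 1089, 1049 and 1012 FPKM after Bmi1 shRNA) did not pass (limma, adjusted p = 0.0574 and 0.153), although no treated library overlapped the controls. EEF1G passed with medians over transcripts (0.41, adjusted p = 0.0337). EEF1D passed without Bmi1 shRNA replicate 2 (adjusted p = 0.0423) and with the trend removed (0.55, adjusted p = 0.0268). EEF1E1, despite its name a scaffold protein of the multi-tRNA synthetase complex, rose from 8.38, 7.31 and 6.99 to 13.8, 14.1 and 11.4 FPKM (log2 fold change 0.72, SE 0.10; limma, adjusted p = 0.0018). At 36.9% GC it was lower with the trend removed (-0.22, adjusted p = 0.044) and not called with medians over transcripts (0.16, adjusted p = 0.196).

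Of 6 tested enzymes that modify elongation factors, 3 rose and 2 fell. EEF2K, the kinase that inactivates eEF2, fell from 1.68, 1.93 and 1.6 to 1.1, 1.06 and 1.21 FPKM (log2 fold change -0.36, SE 0.072; limma, adjusted p = 0.00597). EEF2KMT, which methylates eEF2, fell from 7.54, 7.1 and 7.15 to 5.91, 5.79 and 5.8 FPKM (log2 fold change -0.27, SE 0.053; limma, adjusted p = 0.00548). Both fell, as EEF2 did, but neither passed with the trend removed (-0.0068 and -0.066; limma, adjusted p = 0.933 and 0.353). With medians over transcripts EEF2K passed (-0.20, adjusted p = 0.0398). Of the lysine methyltransferases of eEF1A, 3 rose: EEF1AKMT1 from 2.68, 2.94 and 2.89 to 5.02, 5.45 and 4.51 FPKM, EEF1AKMT2 from 1.65, 1.3 and 1.34 to 2.03, 2.06 and 2.03 FPKM and EEF1AKMT4 from 21.4, 21.1 and 21.5 to 25.4, 24.3 and 26.3 FPKM (limma, adjusted p = 0.000953, 0.0103 and 0.00903). With the trend removed EEF1AKMT4 passed (0.33), EEF1AKMT1 did not (0.20, adjusted p = 0.0561) and EEF1AKMT2 was lower (-0.31, adjusted p = 0.00822). With medians over transcripts EEF1AKMT1 passed as higher (0.49, adjusted p = 0.00306) and EEF1AKMT2 did not pass (-0.14, adjusted p = 0.107). EEF1AKMT4 did not pass with libraries scaled to one total (limma, adjusted p = 0.0636). EEF1AKMT3 lay at 0.956, 1.12 and 0.864 FPKM in control and 0.875, 0.749 and 0.463 FPKM with Bmi1 shRNA, and was not tested. EEF1AKNMT, which methylates both the first residue and a lysine of eEF1A, measured 11.2, 15.2 and 15.6 FPKM in control and 10.7, 11 and 11.8 FPKM after Bmi1 shRNA and did not pass (limma, adjusted p = 0.091). Without control replicate 1, the low one, it did (limma, adjusted p = 0.00551). With the trend removed EEF1AKNMT did not pass (-0.043, limma, adjusted p = 0.785).

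Across the 59 genes the direction of change went with GC content. Of 20 genes under 45% GC, 13 were higher and none lower, with a median log2 fold change of 0.36. Over all rows of that range 58% were higher and 5.44% lower, with a median of 0.34. Of 20 genes at 45 to 52%, 6 were higher and 5 lower (median 0.029), against 20.1% and 33.5% of all rows (median -0.089). Of 19 genes at 52% or more, 3 were higher and 9 lower (median -0.16), against 13.2% and 44.4% of all rows (median -0.21). Spearman's rho between log2 fold change and GC content was -0.614 over the 59 genes and -0.474 over 10242 rows with a known transcript; genes share the libraries and are not independent. With the trend removed, 18 of the 36 genes that had passed did so in the same direction. The 10 higher ones were EIF2S1, EIF2S2, EIF2B2, EIF2B3, EIF3E, EIF3K, EIF3M, EIF5B, EEF1A1 and EEF1AKMT4, and the 8 lower ones EIF1, EIF1AD, EIF2B1, EIF3CL, EIF4G1, EIF4H, EEF1A2 and EEF2. With medians over transcripts 17 of these 18 passed in the same direction, EIF2S1 being the exception. EIF5A2, EEF1E1 and EEF1AKMT2 passed in the opposite direction, and the other 15 no longer passed; 6 of those 15 did pass in their first direction with medians over transcripts. A further 6 that had not passed in the deposited values did so with the trend removed: EIF3L and EEF1D higher, EIF1B, EIF2S3, EIF2S3B and EIF3G lower.

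**Figure D4:**
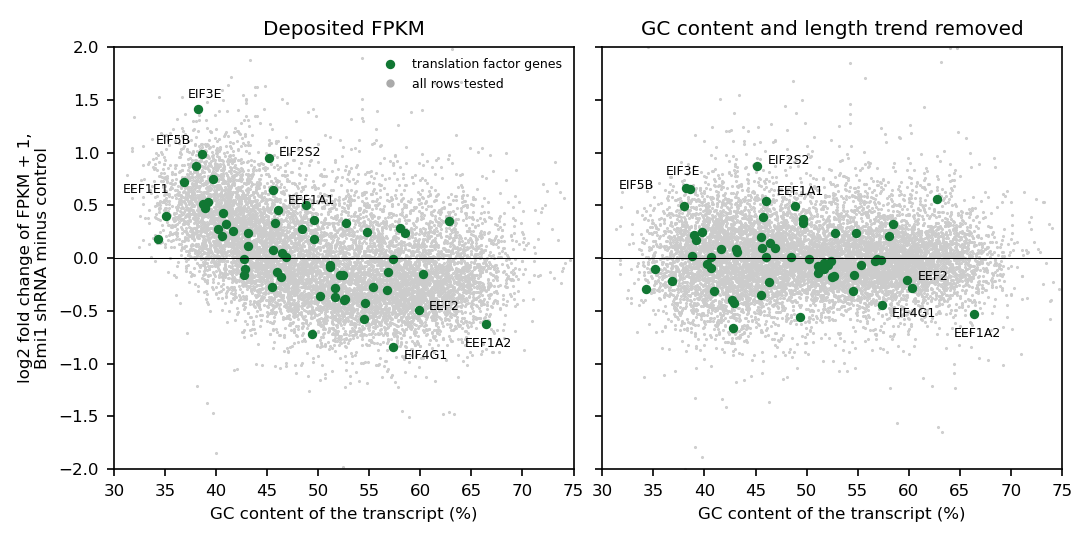
Log2 fold change of FPKM + 1 (y axis, Bmi1 shRNA minus control) against the GC content of the transcript in percent (x axis), as deposited (left) and with the trend of each library with GC content and length removed (right); green points are translation factor genes and grey points all rows tested, of which 21 (left) and 22 (right) lie beyond the axes. Spearman's rho over the green points is -0.614 on the left and -0.138 on the right.

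Genes with a TOP start did not move as one. Of the 13 genes, 6 rose (EEF1A1, EEF1B2, EIF2A, EIF3K, EIF3M and EIF4A2), EEF2 fell and 6 did not pass, with a median log2 fold change of 0.21. Over all rows 28.6% were higher and 28.5% lower. Of the 34 tested genes whose RefSeq starts lack the run, 13 rose, 10 fell and 11 did not pass (median 0.043). EEF1A1 and EEF2, whose runs are equally long, had log2 fold changes of 0.45 and -0.49. With the trend removed, 3 of the TOP genes were higher (EEF1A1, EIF3K and EIF3M) and 3 lower (EEF2, EIF2S3 and EIF2S3B). Genes without a matched start site, EIF3E among them, are in neither set. The difference between the sets was not tested.

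The regulators that act on these factors were taken from lists of other translation genes, 45 of them tested: 17 were higher, 9 lower and 19 did not pass. The 26 that passed were 57.8% of those tested, close to the 57.1% over all rows. Counts by list below are small and stand beside 28.6% higher and 28.5% lower over all rows. Of the eIF2 kinases, EIF2AK3, the kinase of endoplasmic reticulum stress, rose from 3.02, 3.26 and 2.88 to 3.76, 3.87 and 3.97 FPKM (log2 fold change 0.26, SE 0.062; limma, adjusted p = 0.0112). EIF2AK1, at 28.9 ± 0.233 and 28.1 ± 1.26 FPKM (SD, n = 3 each), EIF2AK2, at 2.8 ± 0.0639 and 2.8 ± 0.227 FPKM (SD, n = 3 each), and EIF2AK4, at 1.38 ± 0.0452 and 1.31 ± 0.101 FPKM (SD, n = 3 each), did not pass (limma, adjusted p = 0.559, 0.975 and 0.565). Both regulatory subunits that lead a phosphatase to eIF2 fell, PPP1R15A, induced in stress, from 43.2, 46.2 and 44 to 27.3, 28.3 and 28.7 FPKM (log2 fold change -0.64, SE 0.052; limma, adjusted p = 0.000348) and PPP1R15B, its constitutive counterpart, from 6.67, 7.2 and 7.01 to 5.5, 5.12 and 5.75 FPKM (log2 fold change -0.30, SE 0.063; limma, adjusted p = 0.00707). For these 3 genes the groups did not overlap, and all passed with the trend removed (0.24, -0.43 and -0.37), but EIF2AK3 did not with medians over transcripts (0.0018, adjusted p = 0.982). EIF2AK2 was lower with the trend removed (-0.28, adjusted p = 0.00828). EIF2AK4 was higher in that version (0.16, adjusted p = 0.0368) and lower with medians over transcripts (-0.28, adjusted p = 0.00947).

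Of 12 genes that control eIF4E and eIF4A, 2 were higher and 4 lower. EIF4EBP1, the most abundant 4E-BP, measured 125, 130.0 and 129 FPKM in control and 123, 131 and 133 FPKM after Bmi1 shRNA and did not pass (limma, adjusted p = 0.902); it was lower with the trend removed (-0.18, adjusted p = 0.0145) and with quantile normalization (-0.17, adjusted p = 0.0333), but higher with medians over transcripts (0.16, adjusted p = 0.0182). EIF4EBP2 fell from 22.4, 22.9 and 22.2 to 18.2, 16.9 and 20.0 FPKM (log2 fold change -0.28, SE 0.070; limma, adjusted p = 0.0136). EIF4EBP3, at 2.55 ± 0.413 and 2.99 ± 0.716 FPKM (SD, n = 3 each), overlaps the readthrough gene ANKHD1-EIF4EBP3 and did not pass (limma, adjusted p = 0.413). MTOR itself fell from 3.56, 4.08 and 3.69 to 2.04, 1.86 and 2.45 FPKM (log2 fold change -0.62, SE 0.090; limma, adjusted p = 0.00184) and RPTOR, the mTORC1 scaffold, from 4.25, 5.37 and 5.15 to 2.86, 2.49 and 3.5 FPKM (log2 fold change -0.59, SE 0.12; limma, adjusted p = 0.00631). LARP1, which binds TOP mRNAs, fell from 31.1, 36.8 and 32.6 to 20.1, 17.6 and 22.4 FPKM (log2 fold change -0.72, SE 0.10; limma, adjusted p = 0.00188). PDCD4, an inhibitor of eIF4A, rose from 4.11, 4.33 and 3.01 to 7.7, 8.28 and 7.66 FPKM (log2 fold change 0.89, SE 0.11; limma, adjusted p = 0.00123), and RPS6KB1, the S6 kinase that marks PDCD4 for destruction, from 1.12, 1.28 and 1.01 to 1.8, 1.55 and 1.88 FPKM (log2 fold change 0.36, SE 0.080; limma, adjusted p = 0.00902). MTOR (-0.21), LARP1 (-0.35), EIF4EBP2 (-0.28) and PDCD4 (0.48) passed with the trend removed. RPTOR (-0.17, adjusted p = 0.115; medians over transcripts -0.27, adjusted p = 0.0428) and RPS6KB1 (-0.0017, adjusted p = 0.987) did not. MLST8, RPS6KB2, MKNK1 and MKNK2 did not pass in the deposited values (limma, adjusted p = 0.923, 0.322, 0.16 and 0.104); MKNK2, a kinase of eIF4E, stood at 24.7, 39.5 and 23.5 FPKM in control and 17, 18.8 and 24.9 FPKM after Bmi1 shRNA.

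Of the 5 genes of the poly(A)-binding protein and its partners, 2 rose and 1 fell. PABPC1 measured 149, 145 and 145 FPKM in control and 106, 125 and 138 FPKM after Bmi1 shRNA and did not pass (limma, adjusted p = 0.0554; 0.0161 without Bmi1 shRNA replicate 3), although it was lower under each of the 3 other scalings (largest adjusted p 0.0283), and PABPC4 fell from 31, 38.4 and 38 to 21.2, 25.2 and 25.1 FPKM (log2 fold change -0.56, SE 0.11; limma, adjusted p = 0.00522). PAIP1, which joins it to eIF3 and stimulates translation, rose from 14.1, 13.5 and 15.2 to 30.2, 34.5 and 28.9 FPKM (log2 fold change 1.08, SE 0.082; limma, adjusted p = 0.000315), and PAIP2, which displaces it from poly(A), from 12.2, 11.5 and 11.5 to 23.9, 24.5 and 20.8 FPKM (log2 fold change 0.91, SE 0.075; limma, adjusted p = 0.000363). In termination and recycling 4 of 5 tested genes rose and none fell, while 3 stood higher and 2 lower once the trend was removed. All 5 have transcripts under 45% GC, a range in which 58% of all rows were higher and 5.44% lower. GSPT1, the release factor eRF3, was the gene that did not pass (15.7 ± 0.619 and 14.9 ± 0.301 FPKM (SD, n = 3 each); limma, adjusted p = 0.29), and it was lower with the trend removed (-0.26, adjusted p = 0.00633). The rises were led by DENR, which recycles the small subunit, from 11.4, 9.98 and 10.1 to 21.9, 23.3 and 24.5 FPKM (log2 fold change 1.08, SE 0.073; limma, adjusted p = 0.000267), by ABCE1, which splits ribosomes, from 2.92, 2.93 and 2.77 to 5.7, 6.45 and 6.23 FPKM, and by ETF1, the release factor eRF1, from 18.1, 18.5 and 16.5 to 25, 24 and 25.1 FPKM. MCTS1, the partner of DENR, also rose (log2 fold change 0.35; limma, adjusted p = 0.0167), but its sign turned with the trend removed (-0.29), and it no longer passed without control replicate 2, without control replicate 3, without Bmi1 shRNA replicate 1 or without Bmi1 shRNA replicate 2 (largest adjusted p 0.0557). PABPC4, PAIP1, PAIP2, DENR, ABCE1 and ETF1 passed in the same direction with the trend removed, although ETF1 did not with medians over transcripts (0.13, adjusted p = 0.128). PABPC1 did not pass with the trend removed (-0.016, adjusted p = 0.901) and was lower with medians over transcripts (-0.42, adjusted p = 0.0126). Both helicases of scanning rose, DHX29 from 1.47, 1.59 and 1.52 to 3.01, 3.55 and 3.18 FPKM and DDX3X from 2.78, 2.35 and 2.44 to 4.36, 3.56 and 4.51 FPKM (limma, adjusted p = 0.000492 and 0.00351).

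Among 7 tested genes that make the hypusine of eIF5A or the diphthamide of eEF2, 2 rose and 1 fell. DHPS and DOHH, the enzymes of hypusine, did not pass (limma, adjusted p = 0.465 and 0.155), while DPH3 and DPH5, of the diphthamide pathway, rose from 2.27, 1.86 and 2.08 to 3.92, 3.92 and 3.86 FPKM and from 4.0, 3.65 and 3.95 to 5.06, 6.15 and 5.13 FPKM, and DPH7 fell from 5.21, 5.09 and 4.5 to 3.87, 3.94 and 4.01 FPKM. DPH3 passed with the trend removed (0.25) and DPH5 and DPH7 did not (-0.13 and -0.17, limma, adjusted p = 0.164 and 0.0947). DPH2, which had not passed in the deposited values (limma, adjusted p = 0.183), was higher with the trend removed (0.38, adjusted p = 0.00847). It was also higher with medians over transcripts (0.33, adjusted p = 0.0116). DPH7 was also lost without control replicate 2 (adjusted p = 0.0533). Of 8 tested factors of mitochondrial translation, 4 rose and 1 fell. MTIF3, an initiation factor, rose from 1.83, 2.22 and 2.05 to 4.53, 4.65 and 4.36 FPKM and GFM2, a recycling factor, from 2.65, 2.75 and 2.67 to 4.34, 4.46 and 4.48 FPKM. MTIF2 rose from 2.8, 2.77 and 3.11 to 5.31, 6.35 and 4.75 FPKM (limma, adjusted p = 0.00158). TUFM, the mitochondrial counterpart of eEF1A, fell from 124, 130.1 and 125 to 95.3, 102 and 103 FPKM (log2 fold change -0.33, SE 0.052; limma, adjusted p = 0.00236), opposite to EEF1A1; the difference between them was not tested. With the trend removed MTIF2 (0.39), GFM2 (0.35) and TUFM (-0.18) passed. MTIF3 did not (0.15, limma, adjusted p = 0.199), although with medians over transcripts it did (0.55, adjusted p = 0.00167). GFM1, which also rose (limma, adjusted p = 0.0122), did not pass with the trend removed (0.069, adjusted p = 0.506).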

How the data were processed

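Each library's values are FPKM as deposited by the authors, in one table with a column per library; columns headed Sc were read as scrambled shRNA and those headed Sh as Bmi1 shRNA, numbered as in the titles. Tools named per the submitters' processing notes are StringTie 1.3.0, HISAT2 2.0 and Bowtie 0.12.2, their roles not stated, and the named build, mm8, is that of the mouse, although the rows carry human symbols; no coordinate was taken from the table. Strand use and depth: not given in the sources used here. Rows whose mean reached 1 FPKM (11016) were transformed as log2(FPKM + 1), the pseudocount being 1, and fitted with limma 3.58.1 (R 4.3.3) on group alone, using eBayes with a trend; p-values were adjusted over every row fitted by Benjamini and Hochberg. GC content and length came from the longest coding transcript in GENCODE 29 (GRCh38), known for all 61 genes (EEF1AKNMT through a RefSeq synonym); their trend was removed with natural splines of 5 degrees of freedom each. Values per library were given for up to 4 genes passing per complex, for paralogs, and for up to 3 genes with the smallest p per other list, and further genes were chosen after their values were seen. The members and lists were chosen with earlier results of these data known. A few cell type markers are not reported here. The steps were tested on simulated data. Alternatives covered the pseudocount, filter, scaling, variance prior, library weights, replicate block, GC content and length, and each library left out.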

Additional observations from a re-analysis of the deposited data

How the results depend on the processing

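With the trend with GC content and length removed, the number of translation factor genes higher went from 22 to 12, or 11 with the replicate block added, and the number lower from 14 to 15 and 13; the number lower moved furthest with one total per library, to 19. With the block added, EIF2S1, EIF4H and EEF1A2 were lost from the 18 that kept their direction (adjusted p = 0.0819, 0.0501 and 0.0533). With medians over transcripts, an alternative added after seeing the data, 15 were higher and 15 lower. Signs of genes that passed turned, both without and with the replicate block, for EEF1E1 (-0.22), EIF4A2 (-0.10), EIF5A2 (-0.30), EIF1AX (-0.10), EEF1AKMT2 (-0.31), DPH5 (-0.13), MCTS1 (-0.29) and RPS6KB1 (-0.0017), as did that of EIF4EBP1, which then passed (-0.18); EIF2AK4 passed at 0.16 without the block only, and in the opposite direction with medians over transcripts (-0.28), as EIF4EBP1 did (0.16). With medians over transcripts they turned for EIF3J (-0.077), EIF4G2 (-0.10), EIF4A2 (-0.048), EIF5A2 (-0.20), EEF1AKMT2 (-0.14) and MCTS1 (-0.070), and EIF5A passed at 0.17. Quantile normalization turned EIF4EBP1 (-0.17). The cause was not tested. Under the 15 alternatives other than these, 25 of the 36 genes that passed (16 higher, 9 lower) did so in each one they entered, 15 for 20 genes and 14 for the 5 whose mean was under 5 FPKM, and no translation factor gene reversed. Scaling to one total moved the median of all rows to -0.10. A mean of at least 5 FPKM left 7 other translation genes higher, of fewer tested. Leaving out 1 library gave 20 to 23 higher and 11 to 14 lower, and for the other translation genes 16 to 17 and 8 to 11, with BMI1 between -1.58 and -1.22. With the replicate block 21 were higher and 12 lower, and 17 and 9 of the other translation genes, with BMI1 at -1.37; the calls of EIF3J, EIF5A2, EIF1 and EIF4ENIF1 ended (adjusted p = 0.0525, 0.0909, 0.0688 and 0.0626) and EEF1D passed (0.0142). Libraries of one number did not deviate together (correlations across rows of 0.0037, -0.079 and -0.023). With 3 libraries a group this check cannot exclude that the numbers pair the libraries. Count tests were not run, since the table holds FPKM. Precision is limited by 3 libraries a group and by unknown depth.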
